A study of Schizosaccharomyces pombe with 6 samples.

Results

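The 10 genes described here encode the enzymes of the lower part of glycolysis and of ethanol fermentation in the fission yeast *Schizosaccharomyces pombe*. They were chosen by gene identifier out of 7268 genes in the deposited count table. No measured value entered that rule, but earlier results of these data were known when the genes were chosen. RNA was sequenced from 6 cultures, 2 each of the strain labelled *Δsaf5*, of *Δcwf12* and of WT, which the labels give as strain 972. Both deleted genes code for proteins linked to pre-mRNA splicing, and the study measured the effect of each deletion on the transcriptome. All cultures were untreated and were collected at an OD600 of 0.5 after growth at 30 °C in YE5S, a rich medium, and the study calls them biological duplicates. The strain list of the study gives the deletions as marker replacements (*saf5::NatR* and *cwf12::KanR*) in *leu1-32* backgrounds, h- for the *saf5* deletion and h+ for the *cwf12* deletion, whereas WT 972 is h- and prototrophic. Whether these were the strains sequenced is not stated. A *leu1-32* allele or a mating type that differs from WT therefore cannot be told apart from the deletion.

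Library totals ranged from 9113139 to 12054198 counts. Counts on *cwf12* fell to 41 and 32 in *Δcwf12*, against 556 and 531 in WT. Counts on *saf5* were 220 and 249 in the libraries labelled *Δsaf5*, against 323 and 234 in WT, and these ranges overlap (log2 fold change -0.33, standard error 0.15, adjusted p = 0.090, edgeR's quasi-likelihood test). The deleted gene thus goes against the label, and the directions given below for the libraries labelled *Δsaf5* rest on that label. An antisense long noncoding RNA is annotated over 802 bases of *saf5*, and its part in these counts was not tested. Fold changes come from 1 edgeR fit of all 6 libraries over 6018 genes with enough counts, and a gene passed the test at an adjusted p (Benjamini-Hochberg) under 0.05. All 10 enzyme genes were tested. Levels per library are TMM-scaled CPM, counts set against the library total and therefore relative levels. More transcript of a gene per cell and less of the other RNA cannot be told apart in them.

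Glycolysis splits a hexose into trioses and oxidises these to pyruvate with a net gain of ATP. In the presence of ample glucose, *S. pombe* ferments most of the pyruvate, which pyruvate decarboxylase turns into acetaldehyde and alcohol dehydrogenase reduces to ethanol, so that the NAD+ used by glyceraldehyde-3-phosphate dehydrogenase (GAPDH) is restored. In pathway order the genes are *fba1* (aldolase, SPBC19C2.07), *tpi1* (triosephosphate isomerase, SPCC24B10.21), *tdh1* and *gpd3* (the GAPDH genes, SPBC32F12.11 and SPBC354.12), *pgk1* (phosphoglycerate kinase, SPBC14F5.04c), *gpm1* (phosphoglycerate mutase, SPAC26F1.06), *eno101* (enolase, SPBC1815.01), *pyk1* (pyruvate kinase, SPAC4H3.10c), *pdc101* (pyruvate decarboxylase, SPAC1F8.07c) and *adh1* (alcohol dehydrogenase, SPCC13B11.01). In the RefSeq assembly ASM294v3 those on chromosome II are *fba1* (chrII:1688321-1689599), *tdh1* (chrII:2807595-2809051), *gpd3* (chrII:578117-580056) and *eno101* (chrII:2201196-2202652) on the forward strand and *pgk1* (chrII:4157821-4159461) on the reverse strand. On chromosome I, *gpm1* (chrI:5173864-5174654), *pyk1* (chrI:3844743-3846675) and *pdc101* (chrI:101715-103597) lie on the reverse strand, and on chromosome III, *tpi1* (chrIII:939913-940869) and *adh1* (chrIII:1591292-1592889) lie on the forward strand.

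*gpd3* differed most between the deletions among the 10 genes, so the parts of the GAPDH sequences that bear on telling *gpd3* from *tdh1* are shown first, all from ASM294v3. Their coding sequences were 93.3% identical and their proteins 93.7% identical over 335 aligned residues. The longest stretch without a difference spans 203 bases, longer than a read of 150 bases. It lies at chrII:2808213-2808415 in *tdh1* and chrII:579307-579509 in *gpd3*, on the forward strand of both, and reads the same in each:
tdh1 and gpd3: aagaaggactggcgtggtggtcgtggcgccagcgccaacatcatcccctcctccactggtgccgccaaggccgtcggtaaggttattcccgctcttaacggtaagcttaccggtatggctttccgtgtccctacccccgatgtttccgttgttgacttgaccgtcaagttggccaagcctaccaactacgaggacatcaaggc
A single read that lies within it cannot be given to either gene. Of the 862 windows of 150 bases in the *tdh1* coding sequence, 54 (6.26%) also occurred in *gpd3*. Of 1408 stretches of 50 bases in *tdh1* and 1891 in *gpd3*, 234 in each gene were found more than once in the genome. No other of the 10 genes held a stretch of 50 bases that occurred elsewhere in the genome.

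In some other parts the GAPDH sequences are more easily told apart. The stretch of 60 bases with the most differences lies at coding positions 38 to 97 (chrII:2807674-2807733 in *tdh1* and chrII:578768-578827 in *gpd3*, forward strand), and capitals mark its 15 differing bases:
tdh1: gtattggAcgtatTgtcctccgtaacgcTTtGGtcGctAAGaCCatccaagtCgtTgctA
gpd3: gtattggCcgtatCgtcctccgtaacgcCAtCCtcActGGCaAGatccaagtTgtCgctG
Reads that cross such a stretch differ between the genes, and how reads matching both genes were counted is not given in the sources used here.

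*gpd3* was also the only gene of the 10 with an annotated intron, of 543 bases, which lies in the 5′ untranslated region. As both deleted genes are linked to splicing, its ends are shown. The 5′ splice site is at chrII:578179-578190 (forward strand), with the first bases of the intron in capitals, and the 3′ end at chrII:578698-578727, with the branch site motif CTAAC and the last bases of the intron in capitals:
gpd3 5′ splice site: tagGTatgtgat
gpd3 3′ end of the intron: tctcttcttcttaCTAACtcttttcAGata
The count table gives 1 value per gene, so spliced and unspliced *gpd3* reads are not separated in it, and neither *tdh1* nor any other of the 10 genes has an annotated intron.

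Promoters are shown for 4 genes whose levels are set side by side below. *tdh1*, *gpd3* and *pgk1* were higher in the libraries labelled *Δsaf5*, and *pdc101* did not pass the test in any comparison with all 6 libraries in the fit. The 150 bases before the annotated transcript start are given on the coding strand, with the letters TATAAA, searched on both strands, in capitals. They lie at chrII:2807445-2807594 (forward strand) for *tdh1*, chrII:577967-578116 (forward) for *gpd3*, chrII:4159462-4159611 (reverse) for *pgk1* and chrI:103598-103747 (reverse) for *pdc101*:
tdh1: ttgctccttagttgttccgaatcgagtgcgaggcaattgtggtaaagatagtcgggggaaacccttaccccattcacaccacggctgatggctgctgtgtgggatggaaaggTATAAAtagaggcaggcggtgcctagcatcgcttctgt
gpd3: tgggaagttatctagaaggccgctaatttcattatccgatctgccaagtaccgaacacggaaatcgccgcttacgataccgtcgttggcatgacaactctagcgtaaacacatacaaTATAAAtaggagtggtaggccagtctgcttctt
pgk1: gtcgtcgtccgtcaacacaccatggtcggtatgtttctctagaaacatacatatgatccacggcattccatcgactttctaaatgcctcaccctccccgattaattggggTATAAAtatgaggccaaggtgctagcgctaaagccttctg
pdc101: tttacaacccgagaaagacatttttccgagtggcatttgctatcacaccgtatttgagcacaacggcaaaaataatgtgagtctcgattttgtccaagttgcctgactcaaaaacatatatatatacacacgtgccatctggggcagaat
TATAAA occurred in 6 of the 10 windows, against 1485 (29.0%) of 5112 protein-coding genes. It began 38 bases before the start in *tdh1*, 33 in *gpd3*, 40 in *pgk1*, 32 in *gpm1* and 41 in *adh1*, and *pyk1* held it on the reverse strand only. A match is a description of the sequence only.

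These genes are among the most abundant transcripts of the cell. In every library 9 of the 10 were among the 20 genes with the most counts, and the exception was *gpd3*, at rank 213 and 216 in the libraries labelled *Δsaf5*, 1489 and 1652 in the *Δcwf12* libraries, and 976 and 495 in WT. The number within the first 10 genes was 8 and 8 in the libraries labelled *Δsaf5*, 8 and 7 in the *Δcwf12* libraries, and 4 and 7 in WT. Levels between genes were compared per kilobase of the length listed in the table. In WT, *fba1* (6780 ± 1510 CPM per kb), *gpm1* (6723 ± 1480) and *tdh1* (6172 ± 1994) were highest, followed by *eno101* (4968 ± 1751), *tpi1* (4944 ± 1008), *pgk1* (3965 ± 1314), *pyk1* (3281 ± 598.0) and *pdc101* (3177 ± 814.2; SD, n = 2 each). From *fba1* down to *pdc101* each neighbouring pair differed by less than the larger of its SDs. WT replicate 2 was higher than WT replicate 1 for all 10 genes, so these SDs hold a shift that the genes share. They do not measure the order within a library, which was not tested. *adh1* stood at 1892 ± 597.8 CPM per kb on its listed length of 3463 bases, and at 4099 on the 1598 exon bases of the annotation, between *pgk1* (4164) and *pyk1* (3230) on that basis. *gpd3*, the minor GAPDH gene, had 147.8 ± 68.73 CPM per kb in WT.

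The 10 genes together took 9.55% and 10.1% of all counts in the libraries labelled *Δsaf5*, 7.66% and 7.34% in the *Δcwf12* libraries, and 4.84% and 6.96% in WT. The libraries of both deletions lay above both WT libraries and the libraries labelled *Δsaf5* lay above all others. Without *tdh1*, the gene with the most counts of the 10, the share was 7.81% and 8.29% in the libraries labelled *Δsaf5*, 6.08% and 5.81% in the *Δcwf12* libraries, and 4.13% and 5.86% in WT, so that *Δcwf12* then overlapped WT. The means were 9.82% ± 0.385 in the libraries labelled *Δsaf5*, 7.50% ± 0.227 in the *Δcwf12* libraries and 5.90% ± 1.50 in WT (SD, n = 2 each), with the widest SD in WT. Counting error was small beside this, with a 95% exact binomial interval of 9.53% to 9.57% for replicate 1 of the libraries labelled *Δsaf5*. With 2 libraries against 2, an exact two-sided permutation test cannot give a p below 0.33, so the sums were not tested. Ribosomal protein genes, the other large block of transcripts in a growing cell, took 14.1% and 15.9% of counts in the libraries labelled *Δsaf5*, 18.1% and 17.9% in the *Δcwf12* libraries, and 19.2% and 17.8% in WT.

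**Figure D1:**
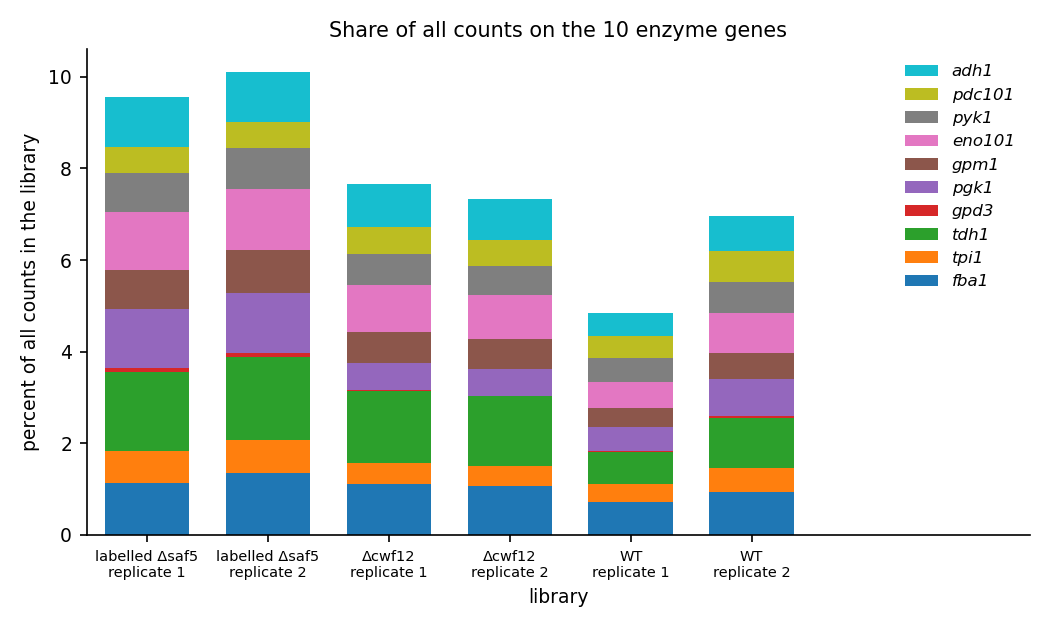
Percent of all counts in each library on the 10 enzyme genes (y axis), stacked by gene, for the 6 libraries (x axis). The sums are 9.55% and 10.1% in the libraries labelled *Δsaf5*, 7.66% and 7.34% in the *Δcwf12* libraries, and 4.84% and 6.96% in WT, and the red *gpd3* band is thin in every library.

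WT replicate 2 had more of every one of the 10 transcripts than WT replicate 1, by 1.30-fold (*pyk1*) to 1.98-fold (*gpd3*). This exceeded the usual spread of that pair, in which 90% of 4995 genes at a mean of 10 CPM or more had ratios between 0.803 and 1.26. In WT, 7.17% of those genes differed at least as much as *pyk1*, in either direction. The libraries labelled *Δsaf5* differed by 1.05-fold to 1.26-fold on these genes, all higher in replicate 2, and the *Δcwf12* libraries by ratios of 0.907 to 0.937, all lower in replicate 2. Of 9 stress-response genes 9 were also higher in WT replicate 2 (median ratio 1.28), as were 6 of 7 further glycolytic and fermentative genes (median ratio 1.32), whereas 8 of 131 ribosomal protein genes were (median ratio 0.953). How much each comparison below rests on 1 library was measured by leaving out each in turn. A strain then keeps 1 library, which is assumed to vary like the other strains. On these 10 genes WT varied more than either deletion, so a call that passes with 1 WT library left is not thereby firmer.

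By edgeR's quasi-likelihood test 7 of the 10 genes were above WT in the libraries labelled *Δsaf5* and 0 were below it, where 24.7% of all genes tested were called higher and 25.5% lower. The count of lower genes was also 0 at an unadjusted p under 0.05 and by DESeq2. The 7 were *tpi1*, *tdh1*, *gpd3*, *pgk1*, *gpm1*, *eno101* and *adh1*. Only *gpd3* also reached a 2-fold difference, a size at which 6.2% of all genes were called higher and 2.49% lower. For 9 genes both libraries labelled *Δsaf5* lay above both WT libraries, a pattern found for 38.1% of all genes, and for 0 both lay below (35.6%). The median log2 fold change over the 10 genes was 0.64, against 0.02 over all genes tested, and it was 0.36 without WT replicate 1 and 0.95 without WT replicate 2. Without WT replicate 1 only 4 of the 10 were called higher and *pdc101* was called lower, without replicate 2 of the libraries labelled *Δsaf5* 4 were called higher, and without WT replicate 2 the count was 9. *tdh1*, *gpd3*, *pgk1* and *gpm1* passed under all 14 alternatives tried, each library left out in turn among them.

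In *Δcwf12*, 2 of the 10 genes were higher than in WT (*tdh1* and *adh1*), where 25.5% of all genes were called higher, and 1 was lower (*gpd3*), where 25.0% were called lower. The count of higher genes is below the share over all genes, and the 1 lower gene is likewise below it. *gpd3* also passed the 2-fold size, which 2.64% of all genes did in the lower direction and 7.31% in the higher. Both *Δcwf12* libraries lay above both WT libraries for 5 genes (38.0% of all genes) and below them for 1 (37.8%). The median log2 fold change was 0.25, against -0.005 over all genes tested, and it was 0.04 without WT replicate 1 and 0.47 without WT replicate 2. Without WT replicate 1 the count of higher genes was 0 and that of lower genes 2, without replicate 1 of *Δcwf12* 0 were higher, without its replicate 2 the count was 1, and without WT replicate 2 it was 5. *gpd3* passed under all 8 alternatives that kept both libraries of each strain compared, and its value ran from -1.67 to -0.69 with each library left out in turn. Both comparisons use the same WT libraries, so their values are given side by side and no likeness between them is drawn.

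**Figure D2:**
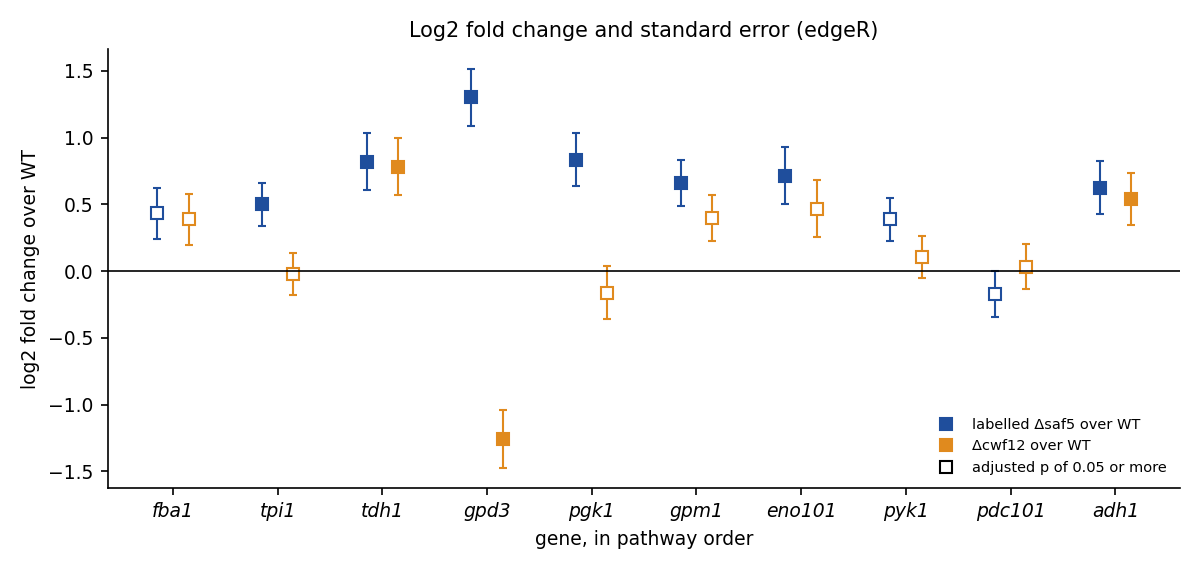
Log2 fold change over WT with its standard error (y axis) for the 10 genes in pathway order (x axis), for the libraries labelled *Δsaf5* (blue) and for *Δcwf12* (orange), with open squares for an adjusted p of 0.05 or more. The blue values run from -0.17 (*pdc101*) to 1.30 (*gpd3*) and the orange ones from -1.26 (*gpd3*) to 0.78 (*tdh1*).

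*fba1* encodes aldolase, which cleaves fructose 1,6-bisphosphate into the triose phosphates. It had 10239 and 12911 CPM in the libraries labelled *Δsaf5*, 11591 and 10845 in the *Δcwf12* libraries, and 7220 and 9919 in WT. All libraries of the deletions lay above both WT libraries, but only narrowly above WT replicate 2. The log2 fold change over WT was 0.43 in the libraries labelled *Δsaf5* (standard error 0.19, adjusted p = 0.075) and 0.39 in *Δcwf12* (standard error 0.19, adjusted p = 0.11), and neither passed. Each value passed under 1 of the 8 alternatives that kept both libraries of each strain compared. In the libraries labelled *Δsaf5* that was scaling by library totals alone (0.58, adjusted p = 0.0037). Without WT replicate 2 both passed, at 0.68 (adjusted p = 0.0016) in the libraries labelled *Δsaf5* and 0.62 (adjusted p = 0.0036) in *Δcwf12*, and without replicate 1 of the libraries labelled *Δsaf5* their value was 0.59 (adjusted p = 0.033). Without WT replicate 1 the values were 0.22 (adjusted p = 0.38) in the libraries labelled *Δsaf5* and 0.18 (adjusted p = 0.50) for *Δcwf12*.

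*tpi1*, whose enzyme interconverts the triose phosphates, had 6283 and 7088 CPM in the libraries labelled *Δsaf5*, 4865 and 4457 in the *Δcwf12* libraries, and 4050 and 5414 in WT. The libraries labelled *Δsaf5* were highest, and *Δcwf12* lay within the range of WT. Over WT the log2 fold change was 0.50 in the libraries labelled *Δsaf5* (standard error 0.16, adjusted p = 0.019) and -0.02 in *Δcwf12* (standard error 0.16, adjusted p = 0.92). The first call was lost without WT replicate 1 (0.30, adjusted p = 0.13), without replicate 2 of the libraries labelled *Δsaf5* (0.41, adjusted p = 0.081), and with only those strains in the fit (adjusted p = 0.062).

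*tdh1* is the major GAPDH gene and had the most counts of all genes in every library except WT replicate 1, where it was second. It had 15765 and 17332 CPM in the libraries labelled *Δsaf5*, 16636 and 15591 in the *Δcwf12* libraries, and 7229 and 11509 in WT. The libraries of the deletions overlapped each other and lay well above both WT libraries. On the log2 scale the difference from WT was 0.82 in the libraries labelled *Δsaf5* (standard error 0.21, adjusted p = 0.0073) and 0.78 in *Δcwf12* (standard error 0.21, adjusted p = 0.0092). Against WT replicate 2 alone the value was 0.52 (adjusted p = 0.046) in the libraries labelled *Δsaf5* and 0.48 (adjusted p = 0.061) in *Δcwf12*, so that the *Δcwf12* call was lost, as it also was without replicate 1 of *Δcwf12* (0.73, adjusted p = 0.062).

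*gpd3*, the minor GAPDH gene, moved in opposite directions. It had 702.3 and 749.8 CPM in the libraries labelled *Δsaf5*, 129.3 and 117.2 in the *Δcwf12* libraries, and 197.8 and 391.6 in WT. The strains did not overlap, with *Δcwf12* below and the libraries labelled *Δsaf5* above both WT libraries, although the WT libraries themselves differed by 1.98-fold. The level was 2.46-fold higher than in WT in the libraries labelled *Δsaf5* (log2 fold change 1.30, standard error 0.21, adjusted p = 0.00034) and 2.39-fold lower in *Δcwf12* (-1.26, standard error 0.22, adjusted p = 0.00045). In the libraries labelled *Δsaf5* the value was 0.89 over WT replicate 2 alone and 1.88 over WT replicate 1 alone, and in *Δcwf12* it was -1.67 over WT replicate 2 alone and -0.69 over WT replicate 1 alone, so a 2-fold size was reached in each comparison with only 1 of the WT libraries. The annotation places an antisense long noncoding RNA over 643 bases of *gpd3*, and whether its reads enter the count is not known, since the strand setting of the counting is not given in the sources used here.

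The part of *gpd3* in the summed counts on both GAPDH genes does not depend on scaling between libraries. It was 4.27% (95% exact binomial interval 4.17 to 4.36) and 4.15% (4.05 to 4.24) in the libraries labelled *Δsaf5*. In *Δcwf12* it was 0.771% (0.732 to 0.811) and 0.746% (0.704 to 0.791), and in WT 2.66% (2.54 to 2.79) and 3.29% (3.19 to 3.40). The strains were apart and the SDs were 0.0834 in the libraries labelled *Δsaf5*, 0.0174 in *Δcwf12* and 0.443 in WT. For each *gpd3* count there were 22.5 and 23.1 *tdh1* counts in the libraries labelled *Δsaf5*, 129 and 133 in the *Δcwf12* libraries, and 36.6 and 29.4 in WT. With 2 libraries a strain, no exact permutation test of these shares can go below p = 0.33. Reads from the 203 bases shared with *tdh1* could be dropped or assigned to either gene, and the effect on this share was not tested.

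**Figure D3:**
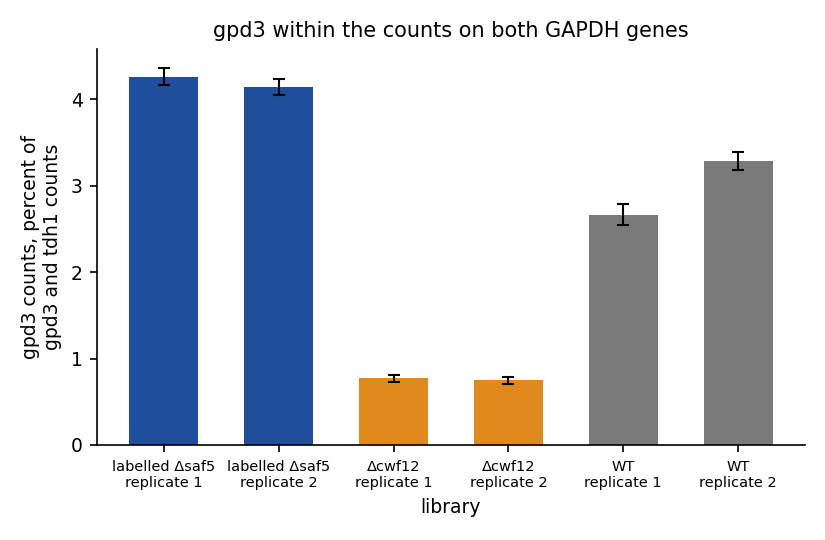
Counts on *gpd3* as a percent of the counts on *gpd3* and *tdh1* together (y axis) in the 6 libraries (x axis), with 95% exact binomial intervals for counting error. The bars stand at 4.27% and 4.15% in the libraries labelled *Δsaf5*, 0.771% and 0.746% in the *Δcwf12* libraries, and 2.66% and 3.29% in WT.

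*pgk1*, whose enzyme makes the first ATP of the lower pathway, had 11767 and 12617 CPM in the libraries labelled *Δsaf5*, 6331 and 5888 in the *Δcwf12* libraries, and 5232 and 8433 in WT. The libraries labelled *Δsaf5* stood above all others and *Δcwf12* lay within the range of WT. The log2 fold change over WT was 0.84 in the libraries labelled *Δsaf5* (standard error 0.20, adjusted p = 0.0045) and -0.16 in *Δcwf12* (standard error 0.20, adjusted p = 0.53). In *Δcwf12* the value depended on the WT library, at -0.47 (adjusted p = 0.033) over WT replicate 2 alone and 0.21 (adjusted p = 0.30) over WT replicate 1 alone. An antisense long noncoding RNA is annotated over all 1641 bases of *pgk1*.

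*gpm1*, the phosphoglycerate mutase gene, had 7531 and 9095 CPM in the libraries labelled *Δsaf5*, 7133 and 6686 in the *Δcwf12* libraries, and 4433 and 6068 in WT. The deletions lay above both WT libraries. Over WT the log2 fold change was 0.66 in the libraries labelled *Δsaf5* (standard error 0.17, adjusted p = 0.0070) and 0.40 in *Δcwf12* (standard error 0.17, adjusted p = 0.073). Of the 8 alternatives that kept both libraries of each strain compared, 2 gave a pass in *Δcwf12*. The *Δcwf12* value passed at 0.63 (adjusted p = 0.0012) without WT replicate 2, and at adjusted p = 0.049 without replicate 2 of the libraries labelled *Δsaf5*, and it was 0.19 (adjusted p = 0.41) without WT replicate 1.

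*eno101*, the main enolase gene, had 11458 and 12900 CPM in the libraries labelled *Δsaf5*, 10755 and 9770 in the *Δcwf12* libraries, and 5573 and 9273 in WT. Again the deletions lay above both WT libraries, *Δcwf12* only narrowly. On the log2 scale the difference from WT was 0.71 in the libraries labelled *Δsaf5* (standard error 0.21, adjusted p = 0.015) and 0.47 in *Δcwf12* (standard error 0.21, adjusted p = 0.088). Of the 8 alternatives that kept both libraries of each strain compared, 1 gave a pass in *Δcwf12*. The first call was lost without WT replicate 1 (0.39, adjusted p = 0.10), without replicate 2 of the libraries labelled *Δsaf5* (0.63, adjusted p = 0.079) and with DESeq2 (0.70, adjusted p = 0.057). The *Δcwf12* value passed without WT replicate 2 (0.87, adjusted p = 6.0e-05) and was 0.145 (adjusted p = 0.57) without WT replicate 1.

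*pyk1* encodes pyruvate kinase, the last step of glycolysis. It had 7779 and 8550 CPM in the libraries labelled *Δsaf5*, 6928 and 6493 in the *Δcwf12* libraries, and 5439 and 7049 in WT. The libraries labelled *Δsaf5* lay above WT, and *Δcwf12* within its range. The log2 fold change over WT was 0.39 in the libraries labelled *Δsaf5* (standard error 0.16, adjusted p = 0.059) and 0.10 in *Δcwf12* (standard error 0.16, adjusted p = 0.62), and neither passed. Scaled by library totals alone, the first value passed (0.54, adjusted p = 0.0019). The first value passed without WT replicate 2 (0.59, adjusted p = 0.0021), without replicate 1 of the libraries labelled *Δsaf5* (0.45, adjusted p = 0.049) and with DESeq2 (0.38, adjusted p = 0.0039), and it was 0.21 (adjusted p = 0.33) without WT replicate 1.

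Of the fermentation genes, *adh1* passed the test over WT in both deletions and *pdc101* in neither. *pdc101*, for pyruvate decarboxylase, had 5126 and 5481 CPM in the libraries labelled *Δsaf5*, 6378 and 5855 in the *Δcwf12* libraries, and 4890 and 7055 in WT. Both deletions lay within the range of WT. Over WT the log2 fold change was -0.17 in the libraries labelled *Δsaf5* (standard error 0.17, adjusted p = 0.42) and 0.03 in *Δcwf12* (standard error 0.17, adjusted p = 0.88). Over WT replicate 2 alone the first was -0.41 (adjusted p = 0.038), and over WT replicate 1 alone it was 0.12 (adjusted p = 0.52).

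*adh1*, the alcohol dehydrogenase gene that ends the fermentation route, had 9861 and 10346 CPM in the libraries labelled *Δsaf5*, 9833 and 9190 in the *Δcwf12* libraries, and 5087 and 8015 in WT. All libraries of the deletions lay above both WT libraries. On the log2 scale the difference from WT was 0.63 in the libraries labelled *Δsaf5* (standard error 0.20, adjusted p = 0.019) and 0.54 in *Δcwf12* (standard error 0.20, adjusted p = 0.037). Each call was lost under 5 of the 14 alternatives. The value in the libraries labelled *Δsaf5* was 0.33 without WT replicate 1 (adjusted p = 0.14), 0.66 without their own replicate 1 (adjusted p = 0.052) and 0.59 without their replicate 2 (adjusted p = 0.070). In *Δcwf12* it was 0.25 without WT replicate 1 (adjusted p = 0.28), 0.48 without its own replicate 1 (adjusted p = 0.17) and 0.58 without its replicate 2 (adjusted p = 0.10). With DESeq2 the adjusted p was 0.056 in the libraries labelled *Δsaf5* and 0.10 for *Δcwf12*. An antisense long noncoding RNA is annotated over all 1598 bases of *adh1*. Such RNAs also cover 1175 bases of *pyk1*, 336 and 304 bases of *pdc101*, 101 of *fba1* and 5 of *gpm1*, which further shares 30 bases with the neighbouring gene *mug106* on its own strand, and *tpi1*, *tdh1* and *eno101* overlap no annotated gene.

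**Figure D4:**
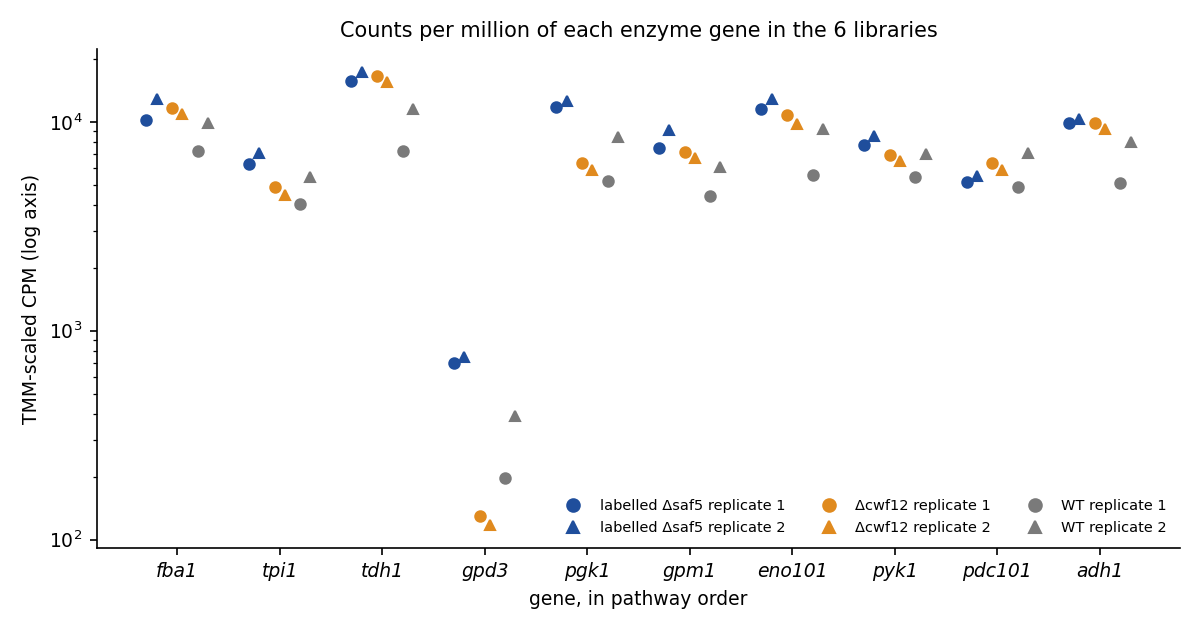
TMM-scaled CPM on a log axis (y axis) of the 10 genes in pathway order (x axis), with circles for replicate 1 and triangles for replicate 2 of the libraries labelled *Δsaf5* (blue), *Δcwf12* (orange) and WT (grey). WT replicate 2 stands above WT replicate 1 for all 10 genes, and *gpd3* stands lower than the rest, at 117.2 CPM to 749.8 CPM.

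**Figure D5:**
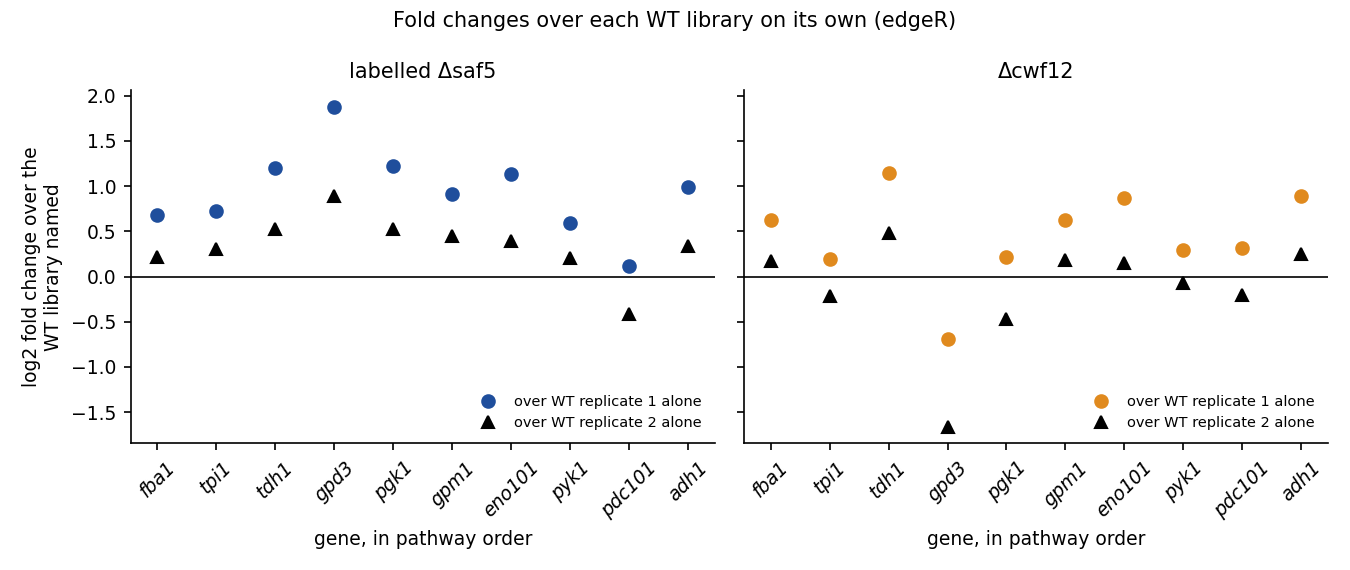
Log2 fold change of the 10 genes (x axis, pathway order) with 1 WT library left in the fit (y axis), for the libraries labelled *Δsaf5* (left) and for *Δcwf12* (right), with circles over WT replicate 1 alone and triangles over WT replicate 2 alone. Every triangle lies below its circle, and *tdh1* in the libraries labelled *Δsaf5*, for example, stands at 1.20 over WT replicate 1 and 0.52 over WT replicate 2.

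The deletions were also compared directly, in the same fit, where the WT libraries enter only through the shared estimate of the spread and the scaling. Among the 10 genes, 3 were higher in the libraries labelled *Δsaf5* than in *Δcwf12* (25.4% of all genes) and 0 were lower (27.8% of all genes). By an unadjusted p under 0.05 or by DESeq2 no gene of the 10 was lower either. Both libraries labelled *Δsaf5* lay above both *Δcwf12* libraries for 7 genes (40.2% of all genes) and below them for 1 gene (40.2%), *pdc101*. The log2 difference was 2.56 for *gpd3* (standard error 0.22, adjusted p = 1.8e-06), 0.997 for *pgk1* (standard error 0.20, adjusted p = 0.0013) and 0.52 for *tpi1* (standard error 0.16, adjusted p = 0.015). Of the 3 only *gpd3* reached a 2-fold size, as did 3.95% of all genes in the higher direction and 4.62% in the lower. The *gpd3* and *pgk1* calls held under all 8 alternatives that kept both libraries of each strain compared. With each library left out in turn, *gpd3* ran from 2.505 to 2.642 and *pgk1* from 0.946 to 1.062. The *tpi1* call was lost without replicate 1 of *Δcwf12* (0.60, adjusted p = 0.056), without its replicate 2 (0.47, adjusted p = 0.11) and without replicate 2 of the libraries labelled *Δsaf5* (0.43, adjusted p = 0.065). The direct differences of *tdh1* (0.04, standard error 0.21), *fba1* (0.04, standard error 0.19) and *adh1* (0.09, standard error 0.20) were each smaller than their standard error. These standard errors also hold the wider spread of WT.

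Genes around the lower pathway were read from lists of known function, and their counts stand against the shares of all genes called over WT, which for the libraries labelled *Δsaf5* were 24.7% (higher) and 25.5% (lower), and for *Δcwf12* 25.5% (higher) and 25.0% (lower). Among upstream enzymes and isozymes of the 10 genes, calls ran in both directions. Of 7 listed genes tested, *pdc202* was higher in the libraries labelled *Δsaf5* and *pfk1*, *hxk2* and *adh4* fell (median log2 fold change -0.03). *pfk1*, for phosphofructokinase, stood at -0.54 (standard error 0.12, adjusted p = 0.0023) and *hxk2*, a hexokinase gene, at -0.48 (standard error 0.13, adjusted p = 0.0096). In *Δcwf12*, *pdc202* and *adh4* were higher and *eno102* was lower (median -0.06). The counts rested on single libraries: 3 were higher in the libraries labelled *Δsaf5* without WT replicate 2 and 0 without their own replicate 2, and 3 were lower in *Δcwf12* without WT replicate 1. *pdc202*, a minor pyruvate decarboxylase gene, had 17.1 and 22.3 CPM in the libraries labelled *Δsaf5*, 26.2 and 30.9 in the *Δcwf12* libraries, and 10.6 and 14.1 in WT, a log2 fold change of 0.67 (adjusted p = 0.0085) in the libraries labelled *Δsaf5* and 1.20 (adjusted p = 1.0e-04) in *Δcwf12*. *adh4*, a further alcohol dehydrogenase gene, had 107.5 and 116 CPM in the libraries labelled *Δsaf5*, 385.8 and 369.3 in the *Δcwf12* libraries, and 197.8 and 184.5 in WT, with log2 fold changes over WT of -0.77 (adjusted p = 7.5e-06) in the libraries labelled *Δsaf5* and 0.98 (adjusted p = 4.6e-07) in *Δcwf12*. The minor enolase gene *eno102* had only 61 and 57 counts in the libraries labelled *Δsaf5*, 6 and 2 in the *Δcwf12* libraries, and 17 and 46 in WT, and only the *Δcwf12* value passed (-3.12, adjusted p = 8.0e-04). *pdc201*, a further pyruvate decarboxylase gene, was not on the list, and the counts and medians above leave it out. It had 96 and 125 counts in the libraries labelled *Δsaf5*, 92 and 65 in the *Δcwf12* libraries, and 39 and 55 in WT. Its log2 fold change over WT was 1.16 (adjusted p = 0.0015) in the libraries labelled *Δsaf5* and 0.55 (adjusted p = 0.081) in *Δcwf12*. The coding sequences of these isozymes share no more than 20 bases in a row with *eno101*, *pdc101* or *adh1*.

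Routes that lead away from the pathway were counted next. Of 7 genes listed for the oxidation of pyruvate and acetaldehyde, which competes with fermentation, 7 were higher in *Δcwf12* (median log2 fold change 0.53). Among the 7, *cit1* encodes citrate synthase, which acts after these oxidations. The 7 also included *pda1*, for a subunit of pyruvate dehydrogenase, at 0.56 (standard error 0.09, adjusted p = 1.6e-04) and *atd1*, for an aldehyde dehydrogenase, at 0.72 (standard error 0.11, adjusted p = 1.2e-04). The count was 6 or 7 under all 14 alternatives. Of the 7 genes 0 stood above WT in the libraries labelled *Δsaf5* and 2 stood below it (*lat1* at -0.33 and *dld1* at -0.23). The count below WT was 1 without any one library of either deletion and 3 without WT replicate 1. Directly against *Δcwf12* all 7 were lower in the libraries labelled *Δsaf5* (median -0.65), where 27.8% of all genes were called lower. Of 6 pentose phosphate genes, 1 was higher (*tal1*) and 3 were lower (*gnd1*, *rki1* and *zwf1*) in the libraries labelled *Δsaf5* (median -0.23), with *gnd1*, for 6-phosphogluconate dehydrogenase, at -1.21 (standard error 0.12, adjusted p = 5.8e-06). In *Δcwf12*, 2 of the 6 were higher (*rpe1* and *tal1*) and 0 lower (median 0.07), and 1 was higher without either of its libraries. Of 6 glycerol genes, 1 rose and 2 fell in the libraries labelled *Δsaf5* (median -0.08), and 2 were higher and 3 lower in *Δcwf12* (median -0.48). Of this list 16.7% was thus called higher for the libraries labelled *Δsaf5*, with 33.3% called lower, and for *Δcwf12* 33.3% was called higher, with 50% called lower. Without WT replicate 1 the count in the libraries labelled *Δsaf5* was 2 higher and 4 lower (median -0.34), without WT replicate 2 it was 2 higher and 1 lower, and without their own replicate 2, 1 was lower. The sign of their median was not stable, at 0.02 without their replicate 1 and 0.07 with library totals only. Among them *gut2*, for the mitochondrial glycerol-3-phosphate dehydrogenase, had 14.6 and 12.1 CPM in the libraries labelled *Δsaf5*, 18.3 and 17.3 in the *Δcwf12* libraries, and 42.9 and 46.6 in WT. It fell by 1.74 on the log2 scale in the libraries labelled *Δsaf5* (adjusted p = 4.9e-07) and fell by 1.33 in *Δcwf12* (adjusted p = 1.9e-06). *dak2*, for a dihydroxyacetone kinase, passed only in *Δcwf12* (-1.16, adjusted p = 0.0088) and did not pass there without WT replicate 2 (-0.46, adjusted p = 0.083), without replicate 2 of *Δcwf12* (-1.05, adjusted p = 0.055) or with DESeq2 (adjusted p = 0.061).

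Markers of glucose repression and of stress were read in the same libraries. Of 8 genes known to be repressed by glucose or to act in that repression, 4 rose and 2 fell in the libraries labelled *Δsaf5* (median 0.29), and 3 were higher and 4 lower in *Δcwf12* (median -0.14). The list holds the regulator genes *scr1* and *rst2* beside targets, so its counts and medians do not measure a state of repression. *scr1* was among the lower genes in both comparisons, and *rst2* among those in *Δcwf12*. Of this list 50% was thus called higher for the libraries labelled *Δsaf5*, with 25% called lower (24.7% and 25.5% of all genes), and for *Δcwf12* 37.5% was called higher, with 50% called lower (25.5% and 25.0% of all genes). In the libraries labelled *Δsaf5* 2 were higher without WT replicate 1 or without their own replicate 2, where 1 was lower, and for *Δcwf12* 1 was lower without its replicate 1. *fbp1*, for the gluconeogenic fructose-1,6-bisphosphatase, had 15.4 and 15.6 CPM in the libraries labelled *Δsaf5*, 13.1 and 13.7 in the *Δcwf12* libraries, and 6.57 and 7.44 in WT, and rose by 1.15 on the log2 scale in the libraries labelled *Δsaf5* (adjusted p = 1.3e-04) and by 0.93 in *Δcwf12* (adjusted p = 5.3e-04). *inv1*, for the secreted invertase, rose by 1.63 (adjusted p = 3.3e-05) in the libraries labelled *Δsaf5* and 2.18 (adjusted p = 1.1e-06) in *Δcwf12*. The hexose transporter genes rested on few counts. *ght6* had 16 and 15 counts in the libraries labelled *Δsaf5*, 31 and 39 in the *Δcwf12* libraries, and 3 and 6 in WT, and its call in the libraries labelled *Δsaf5* was lost without either of those libraries (adjusted p = 0.074 and 0.066) or without WT replicate 1 (adjusted p = 0.084). *ght3* had 27 and 13 counts in the libraries labelled *Δsaf5*, 20 and 23 in the *Δcwf12* libraries, and 38 and 62 in WT, and fell by 1.39 on the log2 scale in the libraries labelled *Δsaf5* (adjusted p = 0.0054) and by the same amount in *Δcwf12* (adjusted p = 0.0046). That call was lost without replicate 2 of the libraries labelled *Δsaf5* (adjusted p = 0.082) and, in *Δcwf12*, without its replicate 1 (adjusted p = 0.055).

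Stress genes were mostly higher in the libraries labelled *Δsaf5* than in *Δcwf12*, with 7 of 9 higher and 1 lower in the direct test by edgeR. Of all genes 25.4% were called higher and 27.8% lower in that test. Of these 9 core stress genes, 5 rose and 3 fell in the libraries labelled *Δsaf5* (median 0.27), and 0 were higher and 7 lower in *Δcwf12* (median -0.71). *hsp9*, for a small heat shock protein, had 955.8 and 925 CPM in the libraries labelled *Δsaf5*, 122.8 and 117.8 in the *Δcwf12* libraries, and 465.1 and 495.7 in WT, with log2 fold changes of 0.97 (adjusted p = 1.6e-06) for the libraries labelled *Δsaf5* and -1.997 (adjusted p = 4.7e-09) for *Δcwf12*. *zym1*, for metallothionein, stood at 2.63 (adjusted p = 3.8e-08) in the libraries labelled *Δsaf5* and -0.10 (adjusted p = 0.65) in *Δcwf12*. In the other direction, *atf1*, for a stress transcription factor, stood at -1.16 (adjusted p = 2.3e-06) in the libraries labelled *Δsaf5* and -0.37 (adjusted p = 0.0060) in *Δcwf12*. The trehalose synthesis gene *tps1* stood at -0.87 (adjusted p = 5.7e-05) in the libraries labelled *Δsaf5* and -1.22 (adjusted p = 2.6e-06) in *Δcwf12*. The catalase gene *ctt1* stood at -0.08 (adjusted p = 0.47) in the libraries labelled *Δsaf5* and -1.16 (adjusted p = 5.3e-07) in *Δcwf12*. The summed level of the 9 genes was 1946 and 1917 CPM in the libraries labelled *Δsaf5*, 768.6 and 739.7 in the *Δcwf12* libraries, and 1433 and 1752 in WT. *hsp9* alone held 955.8 and 925 CPM of the sum in the libraries labelled *Δsaf5*, against 465.1 and 495.7 in WT. The height of the sum over WT thus rests much on this 1 gene. The part of the stress genes in the enzyme values was not tested.

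Most ribosomal protein genes fell in the libraries labelled *Δsaf5*. Of 131 tested, 0 were higher and 117 were lower than in WT (median log2 fold change -0.43), and 0 were higher and 122 lower than in *Δcwf12* (median -0.42), where 25.4% of all genes were called higher and 27.8% lower. The second count dropped to 47 without replicate 1 of *Δcwf12*, 70 without its replicate 2 and 73 without replicate 1 of the libraries labelled *Δsaf5*. In *Δcwf12*, 5 were higher and 7 lower than in WT (median -0.03), with 0 to 7 higher and 1 to 15 lower when a library was left out (the 7 without either of the libraries labelled *Δsaf5*, the 15 without WT replicate 2, the 0 and the 1 without replicate 2 of *Δcwf12*). Each count of 0 given for a gene list by edgeR was also 0 at an unadjusted p under 0.05 and by DESeq2, with the exception of 1 ribosomal protein gene higher in the libraries labelled *Δsaf5* than in WT by both. Scaled by library totals alone, without TMM factors, the median over all genes in the libraries labelled *Δsaf5* shifted to 0.17 on the log2 scale over WT, the ribosomal protein median to -0.29 and the enzyme median to 0.80, so that both medians kept their direction. Under that scaling 2 ribosomal protein genes were higher and 89 lower.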

How the data were processed

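RNA was sequenced as paired reads of 150 bases from libraries made with a stranded mRNA kit. The authors deposited raw counts per gene, whole numbers without normalization, and a length per gene whose origin is not described and which served only for levels per kilobase. The submitters' processing notes name Trimmomatic, STAR, HTSeq, DESeq2 and the build ASM294v2. The annotation release, feature type and strand setting of the counting are not given in the sources used here. The p-values of the main fit set each difference against a spread between cultures that is estimated once per gene for all 3 strains. They do not measure the spread within any single strain.

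Counts were analysed with edgeR 4.0.16 in R 4.3.3 (filterByExpr by strain, TMM factors, glmQLFit with a coefficient per strain, glmQLFTest, Benjamini-Hochberg adjustment over 6018 genes). The smallest and largest library totals were 9113139 and 12054198 counts. Standard errors were derived from each log2 fold change and its F statistic. In counts simulated for the libraries labelled *Δsaf5* against WT over 5875 genes, 50 of 50 genes were recovered at each log2 change of 1, -1, 2 and -2, and 11 of 5675 unchanged genes were called. The simulated spread followed the trend over all genes, and no smaller change was simulated. The WT libraries differed by more than usual on the enzyme genes, so the simulation does not measure recovery or false calls for them. Alternatives were RLE factors, library totals, TMM without the 10 genes, other filters, DESeq2 1.42.0, only the strains compared, the replicate block and each library left out. Exact binomial intervals came from scipy 1.17.1.

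The named genes are all 10 enzyme genes, the deleted genes, and, from pathway lists, genes at an adjusted p under 0.05 and at least 2-fold against WT. *pfk1*, *hxk2*, *adh4*, *pda1*, *atd1*, *cit1*, *pdc201* (on no list) and the genes named behind a count of list members were chosen after their values were seen. The genes and lists were chosen with earlier results of these data known. Symbols came from the ASM294v3 annotation, which matched 6846 of 7268 identifiers and gives SPAC1F8.07c as *pdc101*. Sequences and coordinates are from RefSeq's ASM294v3. *pdc102* had too few counts to be tested.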

Additional observations from a re-analysis of the deposited data

Results flagged for a closer look

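For 3 of the 10 genes the effect of the deletions over WT differed between the libraries labelled *Δsaf5* and *Δcwf12* by a test of the difference itself, edgeR's quasi-likelihood test in the fit of all libraries. By that test 25.4% of all genes were higher in the libraries labelled *Δsaf5* and 27.8% lower. A difference in 3 of 10 genes thus does not exceed the share over all genes. The log2 difference was 2.558 for *gpd3*, with 702.3 and 749.8 CPM in the libraries labelled *Δsaf5* and 129.3 and 117.2 in *Δcwf12* (adjusted p = 1.8e-06). It was 0.997 for *pgk1*, with 11767 and 12617 CPM in the libraries labelled *Δsaf5* and 6331 and 5888 in *Δcwf12* (adjusted p = 0.0013). For *tpi1* it was 0.52, with 6283 and 7088 CPM in the libraries labelled *Δsaf5* and 4865 and 4457 in *Δcwf12* (adjusted p = 0.015), and this call was lost without replicate 1 of *Δcwf12* (0.60, adjusted p = 0.056), without its replicate 2 (0.47, adjusted p = 0.11) or without replicate 2 of the libraries labelled *Δsaf5* (0.43, adjusted p = 0.065). No strain had enough libraries for a test of single outlying libraries.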

How the results depend on the processing

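Of the counts of enzyme genes called higher or lower, that of genes higher in the libraries labelled *Δsaf5* than in WT was 7 and ranged from 4 to 9 with each library left out in turn, and that of lower genes was 0 and ranged from 0 to 1. In *Δcwf12* against WT, the 2 higher genes became 5 with library totals only, 1 with DESeq2 and 1 with the replicate block, and 0 to 5 with a library left out, and the 1 lower gene became 1 to 2. In the libraries labelled *Δsaf5* against *Δcwf12*, the 3 higher genes became 5 with library totals only, 4 with DESeq2 and 2 to 4 with a library left out. The 7 genes higher in the libraries labelled *Δsaf5* than in WT became 9 with library totals only and 6 with DESeq2. With only those strains in the fit they became 5. Leaving out *tdh1*, the gene with the most counts, moved the summed share of all counts to 8.05% for the libraries labelled *Δsaf5*, 5.95% for *Δcwf12* and 4.996% for WT, where *Δcwf12* replicate 2 (5.81%) lay below WT replicate 2 (5.86%). The cause of these changes was not tested, except that a library left out also removes a sample.

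Directions reversed only for values that had not passed, in fits with a library left out. For the libraries labelled *Δsaf5* over WT, *pdc101* ranged from -0.413 (without WT replicate 1, where it passed at adjusted p = 0.038) to 0.12 (without WT replicate 2). In *Δcwf12* over WT the ranges ran from a value without WT replicate 1 to one without WT replicate 2: *tpi1* from -0.218 to 0.192, *pgk1* from -0.467 to 0.213, *pyk1* from -0.073 to 0.292 and *pdc101* from -0.208 to 0.312. There *tpi1* was also 0.03 without replicate 2 of *Δcwf12*, and *pdc101* -0.035 without its replicate 1. For the libraries labelled *Δsaf5* over *Δcwf12*, the ranges ran from a value without replicate 2 of the libraries labelled *Δsaf5* to one without their replicate 1, from -0.131 to 0.204 for *fba1* and from -0.031 to 0.106 for *tdh1*.

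Library totals alone moved the median log2 fold change of all genes to 0.17 in the libraries labelled *Δsaf5* over WT and to 0.16 over *Δcwf12*, against 0.02 and 0.01 with TMM factors. Same-numbered libraries did not deviate together over all genes (correlations of -0.03, 0.04 and -0.01 between strains across 6018 genes). Such a correlation cannot exclude a shared effect on a part of the genes. On the enzyme genes, replicate 2 was higher for all 10 in the libraries labelled *Δsaf5* and in WT, and lower for all 10 in *Δcwf12*. Apart from the *adh1* call in *Δcwf12* (adjusted p = 0.066), the replicate block changed no call on an enzyme gene. Counts of list members under the same alternatives were added after the data were seen. Every enzyme gene had at least 1147 counts in each library. With 2 libraries a strain, the calls changed with single libraries of WT and of both deletions.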
